A study of Ovis aries with 3 samples.

Results

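The actin and tubulin cytoskeleton genes comprised 57 of the 25197 rows of the deposited table. They were chosen by name alone, as rows whose symbol, without a copy number, starts as those of the actins, alpha-actinins (ACTN) and actin-related proteins (ACTR) do, or with PFN, CFL, ARPC, MYL, TPM, TUBA, TUBB or CAPZ. The same rule asked for symbols starting with TMSB, and none matched. By class there were 7 actin rows, 30 actin-binding rows, 11 tubulin rows and 9 other actin-related rows.

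The study sequenced RNA of extracellular vesicles, small membrane-bound particles released by cells, from day 14 sheep conceptuses, the embryo with its surrounding membranes. The 3 libraries formed 1 group without a control. Every conceptus was whole and was kept for 24 h in a dish of its own, in medium with 10% fetal bovine serum from which exosomes had been removed. The vesicles were precipitated from medium passed through a 0.2 µm filter. Any RNA left from the bovine serum was not told apart here, and cellular RNA of the conceptus was not analysed here, so a level in vesicles cannot be set against a level in cells. Which animal gave which library is not in the labels, so errors and p-values measure only how far these 3 libraries differ, which may be technical.

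Actin monomers assemble into filaments that shape the cell cortex and drive contraction. Profilin feeds monomers to growing ends, cofilin severs old filaments, the Arp2/3 complex starts branches, capping protein closes ends, and tropomyosin and myosin bind along the filament. Alpha- and beta-tubulin pair into the dimers of microtubules, the tracks of vesicle transport and of the mitotic spindle. In the elongating ruminant conceptus the outer layer is the trophectoderm, an epithelium. No sequence is shown, since none of these genes' sequences was used here.

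No unit is named for the values, which were taken as RPKM-type, that is, scaled for gene length and library depth. On that reading, levels of different genes can be compared within a library. The values summed to 17480.7, 40060.3 and 9531.8 in libraries 1, 2 and 3, a 4.20-fold span, and comparisons between libraries below therefore also use ranks. The epithelial keratin KRT8 stood at 26.3, 138.9 and 27.3 and the interferon tau gene TP-1 at 6.7, 26.2 and 4.7, so these trophectoderm markers were present in every library. Of the other matched markers, GATA3 stood at 0.9, 0.9 and 3, and ELF5, TFAP2C and CDX2 reached at most 1. A gene is called detected here where none of the 3 libraries falls below a value of 1.

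Of the 57 members, 16 were detected, or 28.1%, against 3.89% of all rows. The 16 were 4 actin rows of 7, 9 actin-binding rows of 30 and 3 tubulins of 11, and none of the 9 other actin-related rows. A further 9 members reached 1 in 2 libraries and 6 in a single library, and 26 stayed below 1 everywhere. Of all 25197 rows, 1292 reached 1 in 2 libraries, 2246 did in a single library and 20678 stayed below 1 everywhere. Of the 9 that fell short in a single library, 5 did so in library 3 (CAPZA2, MYL12B, ARPC3, TPM3 and TUBA4A), 3 in library 1 (CAPZB, TUBB6 and ACTR2) and 1 in library 2 (ACTR6). The median log2(value + 1) over all 57 members was 0.71 ± 0.48 (SD, n = 3), and that over all rows of the table was 0.14 in each library. Across the detected rows alone the medians were 2.68 ± 0.34 for the members and 2.27 ± 0.62 for all 981 rows (SD, n = 3).

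**Figure D1:**
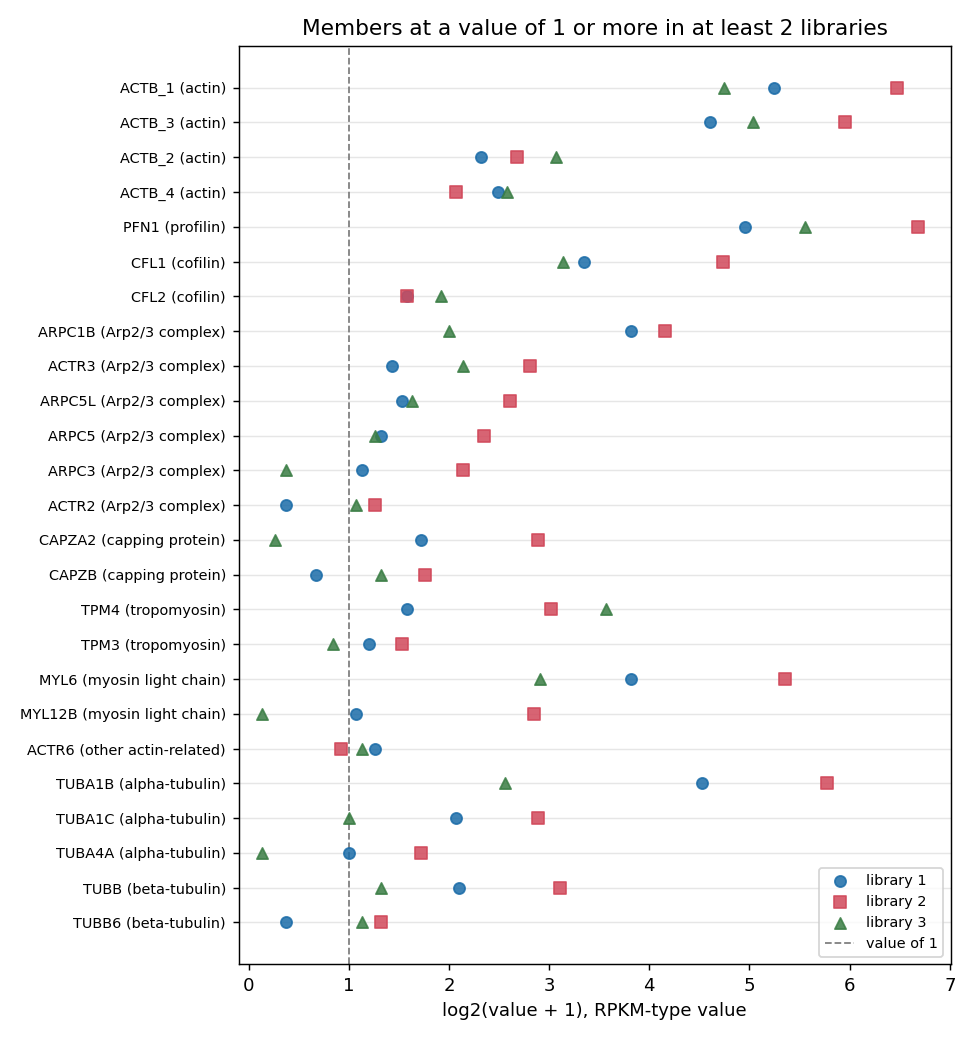
Values of the 25 members that reached 1 in at least 2 libraries, as log2(value + 1) of the RPKM-type value on the x axis, with the gene and its role on the y axis and 1 marker per library. The dashed line is a value of 1, and PFN1, ACTB_1 and ACTB_3 lie farthest to the right in library 2.

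Cytoplasmic actin transcripts were among the most abundant in the vesicles. The row ACTB_1 is described in the table as actin gamma 1 and ACTB_3 as actin beta, the 2 actins of non-muscle cells. ACTB_1 stood at 37, 87.9 and 25.8 in libraries 1, 2 and 3, with a mean of 50.2 ± 33.1 (SD, n = 3). ACTB_3 stood at 23.3, 61.2 and 31.9, with a mean of 38.8 ± 19.9 (SD, n = 3). Among all rows ACTB_1 ranked 60, 67 and 29 and ACTB_3 ranked 100, 89 and 22, so both took their highest place in library 3. ACTB_1 was higher than ACTB_3 in libraries 1 and 2 and lower in library 3, with ratios of 1.59, 1.44 and 0.809. The order of the pair thus differed between libraries.

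Rows described as muscle actins were also detected, at lower levels. ACTB_2, described as the aortic smooth muscle actin alpha 2, stood at 4, 5.4 and 7.4. ACTB_4, described as the enteric smooth muscle actin gamma 2, stood at 4.6, 3.2 and 5. Both were highest in library 3. Their SDs of 1.71 and 0.945 were below those of ACTB_1 and ACTB_3, as were their levels. ACTB_2 ranked 460, 806 and 151 among all rows and ACTB_4 ranked 380, 1272 and 256. Scaled to a library sum of 1000000, ACTB_2 stood at 229, 135 and 776 and ACTB_4 at 263, 79.9 and 525. On that scale ACTB_1 stood at 2117, 2194 and 2707 and ACTB_3 at 1333, 1528 and 3347. In proportion to level, ACTB_2 and ACTB_4 thus differed more between libraries there than ACTB_1 and ACTB_3. ACTB_2 and ACTB_4 amounted to between 0.0523 and 0.232 of the ACTB_3 value of the same library. The coding sequences of actins are nearly identical, and how the authors divided reads among these rows is not given in the sources used here, so the levels of ACTB_1 to ACTB_5 are uncertain relative to each other.

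The other actin rows stayed below 1 in every library. ACTB_5, described as cardiac actin alpha 1, stood at 0.9, 0.8 and 0.6. The skeletal muscle actin ACTA1 stood at 0.1, 0.1 and 0, and the beta-like ACTBL2 at 0.2, 0.3 and 0. Markers of smooth muscle were low beside ACTB_2 and ACTB_4. LMOD1, SMTN, MYH11 and CNN1 reached at most 0.5, and TAGLN, an actin-binding protein of smooth muscle, stood at 1.1, 2.5 and 0.1. None of these 5 was detected, and their values summed to 1.1, 3.3 and 0.2. Which cells gave the ACTB_2 and ACTB_4 transcripts was not tested.

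Profilin 1 had the highest mean of all 57 members. PFN1 stood at 30.1, 101.6 and 46, with a mean of 59.2 ± 37.5 (SD, n = 3), and ranked 71, 59 and 12 among all rows. The ratio of PFN1 to the sum of ACTB_1 and ACTB_3 was 0.499, 0.681 and 0.797. PFN2, the paralog best known from neurons, stood at 0.3, 0.4 and 0.8, and the testis profilin PFN4 at 0.2, 0 and 0. On the log2(value + 1) scale PFN1 exceeded PFN2 by 5.16 ± 0.90 (SD, n = 3), in 3 of 3 libraries (exact sign-flip permutation test, two-sided, p = 0.25, adjusted p = 0.312 over 10 pairs). With 3 libraries 0.25 is the smallest p that test can give, so no pair of genes could pass 0.05, and each pair below with that p has the same adjusted p.

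Both cofilins were detected, with CFL1 above CFL2. CFL1, the non-muscle form, stood at 9.2, 25.6 and 7.8, and CFL2, described as the muscle form, at 2, 2 and 2.8. CFL1 was 3.28-fold higher in library 2 than in library 3, while CFL2 was lower there than in library 3. The difference between them on the log2(value + 1) scale was 2.04 ± 1.00 (SD, n = 3; higher in 3 of 3, exact p = 0.25). The lowest value of CFL1 and the highest of CFL2 both fell in library 3.

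Subunits of the Arp2/3 complex, which nucleates branched actin networks, were present unevenly. Of its 6 rows, 4 were detected. ARPC1B led with 13.1, 16.8 and 3, a mean of 11.0 ± 7.14 (SD, n = 3). ACTR3, an actin-like core subunit, stood at 1.7, 6 and 3.4, ARPC5L at 1.9, 5.1 and 2.1 and ARPC5 at 1.5, 4.1 and 1.4. ARPC3 (1.2, 3.4 and 0.3) and the other actin-like subunit ACTR2 (0.3, 1.4 and 1.1) fell short in a single library each. ACTR2 was below its partner ACTR3 in 3 of 3 libraries, with a difference of -1.22 ± 0.28 on the log2(value + 1) scale (SD, n = 3; exact p = 0.25). ARPC5 was below its paralog ARPC5L in 3 of 3, by a smaller difference of -0.28 ± 0.08 (SD, n = 3; exact p = 0.25). Transcripts of a single complex thus stood at unequal levels, and ARPC1B ranked 140, 275 and 497 among all rows. No row was named ARPC1A, ARPC2 or ARPC4, so these subunits could not be read.

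No CAPZ row of capping protein met the detection rule, and no row was named CAPZA1. CAPZA2, an alpha subunit, stood at 2.3, 6.4 and 0.2, and the beta subunit CAPZB at 0.6, 2.4 and 1.5. The alpha subunit was the lower of the pair in library 3 and the higher in libraries 1 and 2. The testis form CAPZA3 reached at most 0.3.

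Among tropomyosins TPM4, a non-muscle form, was the detected member. It stood at 2, 7.1 and 10.9 in libraries 1, 2 and 3 and ranked 1008, 624 and 88. TPM4 was thus highest in the library with the lowest summed value. TPM3 stood at 1.3, 1.9 and 0.8, TPM2 at 0.3, 3.1 and 0, and TPM1 at 0.7, 1.9 and 0.1, all lowest in library 3. TPM3 lay below TPM4 by -1.53 ± 1.17 on the log2(value + 1) scale, in 3 of 3 libraries (SD, n = 3; exact p = 0.25), with a gap of -0.38 in library 1 and -2.72 in library 3 and a mean of -0.93 without library 3.

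Of 9 myosin light chains, 1 was detected. MYL6, the essential light chain of non-muscle and smooth muscle myosin, stood at 13.1, 39.8 and 6.5, with a mean of 19.8 ± 17.6 (SD, n = 3). MYL12B, a regulatory light chain, stood at 1.1, 6.2 and 0.1. MYL6 exceeded MYL12B by 2.67 ± 0.15 on the log2(value + 1) scale in 3 of 3 (SD, n = 3; exact p = 0.25). The spread of that pair was 1.21 around a mean of 3.72 with a pseudocount of 0.1, so its narrowness depends on the added 1. The other 7 light chains, most of them known from striated or smooth muscle, were MYL1, MYL2, MYL3, MYL4, MYL7, MYL9 and MYL10, and they reached at most 0.8. MYL2 and MYL4 were listed at 0 in every library.

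The alpha-actinins, which crosslink filaments, were low. ACTN4 stood at 0.2, 0.5 and 0.1, ACTN1 at 0, 0.2 and 0.4, and the muscle form ACTN2 at 0.3, 0.4 and 0.4, and their order changed between libraries. ACTN4 over ACTN1 was 0.08 ± 0.37 on the log2(value + 1) scale (SD, n = 3; higher in 2 of 3, exact p = 1). The other actin-related rows, which serve dynactin and chromatin complexes or the testis, held no detected gene. ACTR6, of a chromatin remodelling complex, led them with 1.4, 0.9 and 1.2, followed by the dynactin subunit ACTR10 with 0.5, 2.2 and 0.3.

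Tubulins were led by TUBA1B, an alpha-tubulin of most cell types. It stood at 22, 53.8 and 4.9, with a mean of 26.9 ± 24.8 (SD, n = 3), and ranked 103, 107 and 263. TUBA1C, its close relative, stood at 3.2, 6.4 and 1, and TUBA4A at 1, 2.3 and 0.1. The TUBAL3 row, described as tubulin alpha 4b, reached at most 0.9 and TUBA8 at most 0.3. All but TUBA8 were lowest in library 3. Alpha-tubulins such as TUBA1B and TUBA1C are similar in coding sequence, so the division of reads among alpha-tubulin rows is uncertain too.

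Beta-tubulin rows lay lower than TUBA1B. TUBB stood at 3.3, 7.6 and 1.5, TUBB6 at 0.3, 1.5 and 1.2, TUBB2A at 0.6, 1.3 and 0.7 and TUBB4B at 0.2, 1.5 and 0.2. The beta-tubulins summed to 4.8, 12.8 and 3.9, and the alpha-tubulins to 27.2, 63.7 and 6.3. TUBB lay below TUBA1B by -2.11 ± 0.76 on the log2(value + 1) scale in 3 of 3 libraries (SD, n = 3; exact p = 0.25). TUBB exceeded TUBB6 by 1.23 ± 0.91 in 3 of 3 (SD, n = 3; exact p = 0.25), with only 0.18 in library 3. TUBB4B and TUBB2A differed by -0.27 ± 0.34 and in both directions (SD, n = 3; exact p = 0.5, adjusted p = 0.556). The platelet form TUBB1 (0.4, 0.4 and 0.1) and the neural TUBB4A (0, 0.5 and 0.2) were near 0.

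**Figure D2:**
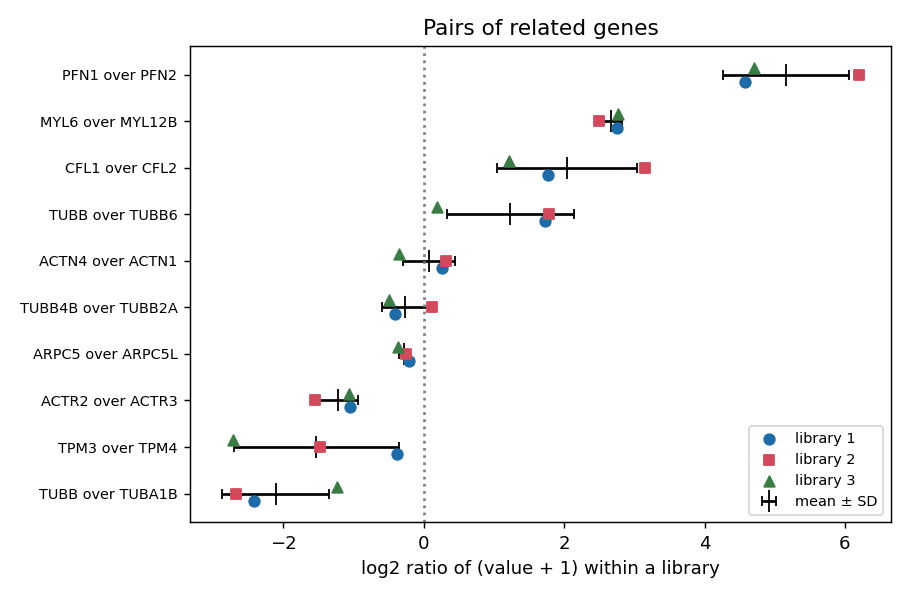
Log2 ratio of (value + 1) within a library for 10 pairs of related genes, with 1 marker per library and the mean ± SD (n = 3) in black. PFN1 over PFN2 lies at 5.16 and TUBB over TUBA1B at -2.11, while ACTN4 over ACTN1 and TUBB4B over TUBB2A span 0.

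Members classed here as restricted, most of them to muscle, platelets, neural tissue or testis, were set against the widely expressed ones. By symbol, 18 were of the restricted kind, and each of them stayed below 1 in every library, with 0.9 as their highest value. That value was of TUBAL3, a row described as tubulin alpha 4b, whose placement, like that of MYL9, is uncertain. Of all 25197 rows, 20678 stayed below 1 in every library and 3.89% were detected. The median log2(value + 1) of all rows was 0.14 in each library. Low levels were thus not particular to the restricted members. The other 39 members held all 16 detected rows. CFL2, described as the muscle form, and PFN2, best known from neurons, were counted among these 39, and CFL2 was detected. The lack of a detected restricted member thus depends on where such genes were placed. The median log2(value + 1) was 0.22 ± 0.14 for restricted and 1.30 ± 0.41 for widely expressed members, a difference of 1.08 ± 0.27 (SD, n = 3). Of markers of those tissues, 7 striated muscle genes reached at most 0.6, 4 neuronal genes at most 0.8, and PPBP of platelets was listed at 0. The smooth muscle marker TAGLN, given above, reached 2.5, more than any restricted member, and markers of testis were not analysed here. When the rows described as muscle actins were counted as restricted as well, 2 of 21 were detected, ACTB_2 and ACTB_4.

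As a gauge of background, 481 rows for olfactory receptors, which conceptus tissue is not known for, were examined. Their 99th percentile was 1.44, 1.02 and 1.74 in libraries 1, 2 and 3, and 0.624% of them met the detection rule. Of the 16 detected members, 13 lay above that percentile in all 3 libraries. TUBB, TUBA1C and ARPC5 did not, because of their values of 1.5, 1 and 1.4 in library 3.

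Compared as classes, actin rows had the highest median level and tubulin and actin-binding rows lay close together. The median log2(value + 1) was 2.33 ± 0.26 for the 7 actin rows, 0.87 ± 0.58 for the 30 actin-binding rows and 0.75 ± 0.53 for the 11 tubulins (SD, n = 3). Without library 2 the actin-binding and tubulin medians were 0.53 and 0.47. Actin exceeded actin-binding rows by 1.74, 0.53 and 2.10 in libraries 1, 2 and 3, a mean of 1.46 ± 0.82, and tubulins by 1.57 ± 0.79 (SD, n = 3). Actin-binding rows and tubulins differed by 0.11 ± 0.18, less than the spread between libraries and with the opposite sign in library 1 (SD, n = 3). The actin medians rest on counting the ACTB rows separately. With these summed into a single gene, the actin class held 3 genes, of which ACTA1 and ACTBL2 are near 0, and the differences became -0.65 from actin-binding genes and -0.54 from tubulins.

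**Figure D3:**
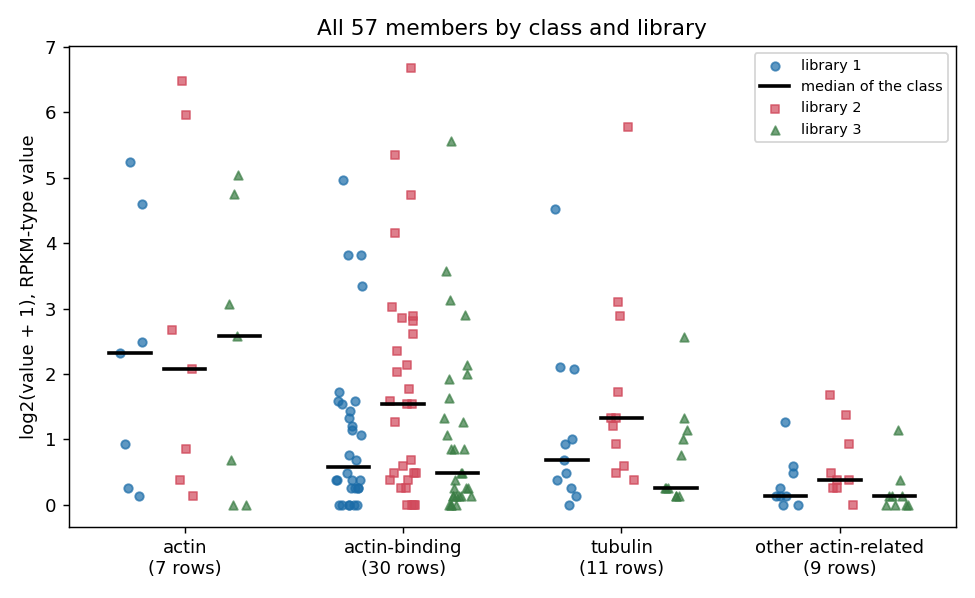
All 57 members by class on the x axis and by library (colour and marker), as log2(value + 1) of the RPKM-type value; each point is a row of the table, spread sideways for visibility, and the black bars are class medians. The actin medians lie above 2 in each library, and most other rows lie below 2.

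By summed value the classes took unequal shares, which differed between libraries. All members together held 1.08%, 1.20% and 1.82% of what libraries 1, 2 and 3 summed to, or 1.37% ± 0.400 (SD, n = 3). PFN1, ACTB_1 and ACTB_3 made up 47.8%, 52.3% and 59.6% of that. Actin rows held 0.401%, 0.397% and 0.742% of the libraries, actin-binding rows 0.482%, 0.594% and 0.957%, and tubulins 0.183%, 0.191% and 0.107%. Actin and actin-binding rows thus took their largest share in library 3, and tubulins as a class their smallest. The low tubulin share lay in the alpha-tubulins, which summed to 27.2, 63.7 and 6.3, mostly TUBA1B at 22, 53.8 and 4.9. The beta-tubulins, which summed to 4.8, 12.8 and 3.9, took a larger share of library 3 than of libraries 1 and 2.

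**Figure D4:**
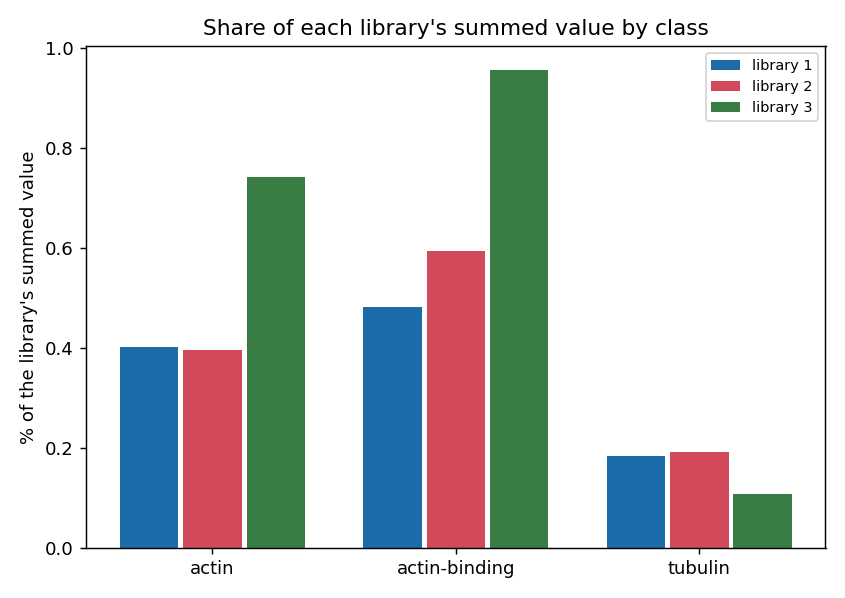
Percent of each library's summed RPKM-type value held by the 7 actin, 30 actin-binding and 11 tubulin rows, with 1 bar per library. Library 3 has the tallest bars for actin (0.742%) and actin-binding rows (0.957%) and the shortest for tubulins (0.107%).

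Within libraries the ratio of summed actin to summed tubulin, of which TUBA1B was the largest part, was 2.19, 2.08 and 6.93. This ratio needs no scaling between libraries. On the log2 scale it averaged 1.66 ± 0.98 (SD, n = 3) and was 1.09 without library 3. The actin to actin-binding ratio varied far less, at 0.833, 0.667 and 0.775. Of the ratios computed, PFN1 over TUBA1B differed most between libraries, at 1.37, 1.89 and 9.39. These ratios were examined after the values had been seen, library 3 also had the lowest summed value of all rows, and the part of that in the result was not tested.

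Against all detected rows, members fell on both sides of the usual difference between libraries. Over all 981 detected rows the median ratio of library 2 to library 3 was 2.90-fold, or 1.54 on the log2 scale. TUBA1B was 3.46 higher on that scale, at the 91.9th percentile of those rows, TUBA1C 2.68 and TUBB 2.34. The ratios of TUBA1C and TUBB rest on library 3 values of 1 and 1.5, below the olfactory receptor percentile of 1.74 there. ACTB_1 and CFL1, at 1.77 and 1.71, lay near the median, and PFN1 and ACTB_3, at 1.14 and 0.94, below it. TPM4, ACTB_2, ACTB_4 and CFL2 were lower in library 2 than in library 3, by -0.62, -0.45, -0.64 and -0.49, as were 19.1% of all detected rows. Between libraries 1 and 3 TPM4 lay at -2.45, at the 0.204th percentile, while TUBA1B and ARPC1B lay at 2.17 and 2.13, at the 92.9th and 92.6th. As deposited, 12 of the 16 detected members were highest in library 2 and 4 in library 3, beside 75.03% and 13.7% of all 981 detected rows. With library sums made equal, 3 were highest in library 2 and 11 in library 3, where 57.8% of all detected rows were highest too. With the medians of detected rows made equal, 6 were highest in library 2 and 8 in library 3, beside 38.8% and 36.5% of those rows. All 3 detected tubulins stayed highest in library 1 or 2 under each scaling.

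**Figure D5:**
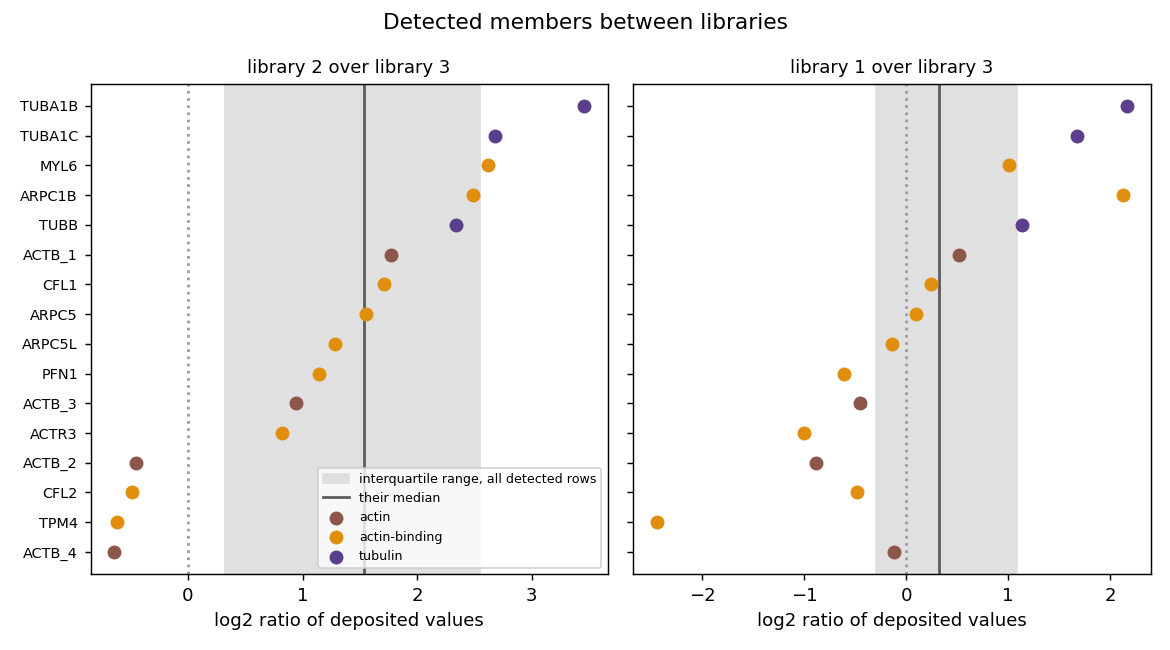
Log2 ratio of deposited values between libraries for the 16 detected members, coloured by class, with library 2 over library 3 on the left and library 1 over library 3 on the right. The grey band and line are the interquartile range and median of all 981 detected rows; the tubulins lie to the right of both medians and TPM4 to the left of both bands.

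Lists of other cytoskeletal genes can be read against the 3.89% of all rows that were detected. Of 49 further actin regulators 46 had a row, and 5 were detected (10.9%). DSTN, an actin depolymerising factor of the cofilin family, stood at 12.6, 80.3 and 27 and CAPG, a gelsolin relative that caps filaments, at 9.3, 36.8 and 6.4. DSTN was thus higher than CFL1 in every library. CAP1, which recycles actin monomers, stood at 1.2, 7.1 and 1.4, and RDX and LIMA1 were the remaining detected members. The median log2(value + 1) of this list was 0.30 ± 0.18 (SD, n = 3).

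Of 38 microtubule partners, 3 were detected (7.89%), with a median log2(value + 1) of 0.26 ± 0.12 (SD, n = 3). The dynein chain DYNLRB1 stood at 3.1, 6.6 and 1.3, the tubulin folding cofactor TBCB at 2.3, 4.3 and 2.9 and the dynein chain DYNLL2 at 2, 2.8 and 3.3. DYNLT1, also a dynein chain, stood at 0.9, 7.3 and 2.1 and narrowly missed in library 1. DYNLL2 was highest in library 3, unlike the detected tubulins.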

How the data were processed

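The authors deposited 1 table with a symbol, an Ensembl identifier, a description, a value per library and their own mean (within 0.0667 of the mean of the columns). Libraries were made with SMART-Seq v4 from 5 ng of total RNA and sequenced as 50 bp pairs, per the labels' protocols. The submitters' processing notes name the build Oar_v3.1. Aligner and counter: not given in the sources used here. No unit is named in the file, and it was taken as RPKM from the deposited values, rounded by the authors to 1 decimal: the commonest value above 0 was 0.4 to 0.5 in U6 rows, 0.3 in the longer U1 rows and 0.1 to 0.2 in the still longer 7SK rows. FPKM would look alike. Gene lengths were not used, so reads behind a value are unknown and no interval was computed.

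Columns were assigned by library title, and library numbers follow accession order. Members, roles, lists and pairs were chosen with earlier results of these data known. Genes were named if detected, if among the 2 highest of their role or the 3 highest of another cytoskeletal list, if an actin row, or if in a compared pair. 1 further gene list is not reported here. Levels used log2(value + 1), which understates differences of low genes. Pairs were compared by a two-sided exact sign-flip permutation test over libraries with Benjamini-Hochberg adjustment; 10 of 14 planned pairs had both rows. A planned comparison of levels with protein length was not run, since protein lengths were not used here. RefSeq symbols (assembly ARS-UI_Ramb_v3.0) matched 48 of the 53 member names; no coordinates were taken. Python 3.11.15, numpy 2.4.6, pandas 2.3.3 and matplotlib 3.10.9 were used, and functions were tested on simulated data.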

Additional observations from a re-analysis of the deposited data

How the results depend on the processing

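Across 23 results, 110 of 142 alternative values stayed within 1.5 times for a count, within 1 SD for a level, difference or share, or, for a gene pair, in the same direction whatever the size. Without library 2, the means of 9 of the 16 detected genes moved by over 1.5 times, among them TUBA1B from 26.9 to 13.45, MYL6 from 19.8 to 9.8, ACTB_1 from 50.2 to 31.4 and PFN1 from 59.2 to 38.05. Detected members numbered 5 at a detection value of 5, beside 0.687% of all rows. They numbered 25 with at least 2 of 3 libraries required, beside 9.02% of all rows. With 1 library left out they numbered 17 to 21, beside 4.45% to 7.29% of all rows. By class, 2 actin, 3 actin-binding and 0 tubulin rows were detected at a value of 5. In at least 2 libraries, 15 actin-binding and 5 tubulin rows were. At a value of 2, 1 tubulin was detected, beside 1.89% of all rows. With copies of a name summed, 1 actin gene was detected, beside 3.99% of all names. Class medians for actin, actin-binding and tubulin rows were 2.04, -0.25 and -0.52 with a pseudocount of 0.1, 7.74, 5.29 and 4.96 with values scaled to a sum of 1000000, and 3.92, 2.25 and 2.18 over detected members. The actin median was 0.21 with copies summed. Actin minus actin-binding was 2.29 with a pseudocount of 0.1, 2.45 scaled and -0.65 with copies summed; actin minus tubulin was 2.56, 2.78 and -0.54. The sign changed with copies summed because the actin class then held 3 genes. Actin-binding minus tubulin was 0.34 scaled and -0.23 with other actin-related rows counted as actin-binding. Widely expressed minus restricted members was 2.60 with a pseudocount of 0.1 and 3.14 scaled, and had no value over detected members, since no restricted member was detected. The members' share was 2.19% with rows lacking a symbol left out of the sum. ACTN4 over ACTN1 ranged from -0.042 to 0.29 with a library left out. The actin to tubulin ratio and the count of muscle actins as restricted were added after seeing the data. No paired analysis was possible because the series has 1 group. Values rounded to 1 decimal limit every statement on genes below 1, and unknown read numbers limit those near it.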

Other observations

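Some relatives of these families are listed under older or missing symbols and so fell outside the name rule; they were found by their descriptions after the values had been seen. MRCL3, described as myosin light chain 12A, a regulatory light chain of non-muscle myosin, stood at 14.9, 45.9 and 4.3 in libraries 1, 2 and 3, with a mean of 21.7 ± 21.6 (SD, n = 3). It exceeded its relative MYL12B by 2.63 ± 0.33 on the log2(value + 1) scale, in 3 of 3 libraries (SD, n = 3). Its level was close to that of MYL6, whose protein pairs with such regulatory chains on the same myosin. THYMB4X, described as thymosin beta 4, which holds actin monomers in reserve, stood at 2.6, 4.7 and 2.1, with a mean of 3.13 ± 1.38 (SD, n = 3). It lay below PFN1, which also binds actin monomers, by -3.73 ± 0.55 on the same scale in 3 of 3 libraries (SD, n = 3). The row ENSOARG00000014989, described as the neural tubulin beta 3, stood at 0.5, 0.1 and 0, and ENSOARG00000006670, described as actinin alpha 3 of muscle, was listed at 0 in each library.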
